A study of Drosophila melanogaster with 3 samples.

Results

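The *zen* neighbourhood of *Drosophila melanogaster*, from *zen2* through *zen* and *bcd* to *Ama*, was followed through peak lists of chromatin immunoprecipitation and sequencing (ChIP-seq) of the Zen protein itself. The stretch is 25.2 kb of chromosome arm 3R (dm6 genome) that begins just short of the 3' end of *zen2* and ends beyond *Ama*. It held 8 of the 7405 summits kept by the irreproducible discovery rate (IDR, a filter on reproducible ranking). It also held 25 of the 30000 summits called on the pooled libraries. The IDR set was exactly the strongest 7405 of those 30000 by signal. Summits were taken by their position in the stretch, which was itself picked with earlier results of these data known. A summit inside the body of *zen*, *zen2*, *bcd* or *Ama* went to that gene, and any other summit went to whichever of the 4 had the nearest annotated transcript start.

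All libraries came from a single group: whole embryos, male and female together, collected at 0 to 4 h from a transgenic line in which Zen carries GFP at its C terminus. Chromatin was sonicated to fragments of 200 to 800 bp and precipitated with an antibody to GFP in 3 biological replicates. Every library was set against 1 shared control file, and no library from embryos without the tagged protein was analysed here, so recovery of open chromatin irrespective of the tag was not tested. The line carries an inserted tagged *zen*, and a peak over sequence shared with the insertion cannot be assigned to either copy. The labels give neither the site of the insertion nor the length of flanking sequence it carries. Its part in the signal, ranks and summit density of the locus was not tested. In whole embryos, binding in more cells and stronger binding in fewer cells cannot be told apart. Read counts are not part of these lists, and library depth is therefore unknown. Signal, the value the authors' caller gave each peak, has a different scale in each list and was compared only within a list, mostly as a rank in which 1 is the strongest. The most common interval width, which was also the median, was 360 bp in replicate 3 and 430 bp in replicates 1 and 2. This was not read as a difference in binding.

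*zen* (*zerknüllt*) encodes a homeodomain transcription factor that is switched on along the dorsal side of the early embryo and is required for the amnioserosa, the extraembryonic membrane. *zen2* is its close neighbour and paralog, with a similar early pattern and no known need for it in viability. *bcd* (*bicoid*) is a diverged relative of *zen* whose maternal mRNA sits at the anterior pole and gives the head-to-tail gradient of Bicoid. *Ama* (*Amalgam*) is no homeobox gene: it encodes a secreted immunoglobulin-domain protein that binds the adhesion receptor Neurotactin. Zen-type homeodomains bind short DNA words around TAAT, Bicoid prefers TAATCC, and Zelda, the activator of the early zygotic genome, binds CAGGTA and its extension CAGGTAG. From the annotated coding sequences, the homeodomains of Zen and Zen2 were identical at 45 of 60 positions (75.0%), those of Zen and Bicoid at 26 (43.3%), and those of Zen2 and Bicoid at 27 (45.0%).

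The DNA under the strongest summit of each gene, and under the far upstream summit of *zen*, is shown because the results turn on these positions. Each run is 201 bases of the plus strand of dm6, read from the RefSeq Release 6 genome, with the summit at its centre. Capitals mark on either strand the Bicoid word TAATCC, the Zelda word CAGGTA and the homeodomain word TAATTA with its variants ending in G (TAATTG) and in GA (TAATGA). On the minus strand CAGGTA reads as TACCTG, while TAATTG reads as CAATTA and the word TAATGA reads as TCATTA.
Ama summit inside the gene, 3R:6763061-6763261: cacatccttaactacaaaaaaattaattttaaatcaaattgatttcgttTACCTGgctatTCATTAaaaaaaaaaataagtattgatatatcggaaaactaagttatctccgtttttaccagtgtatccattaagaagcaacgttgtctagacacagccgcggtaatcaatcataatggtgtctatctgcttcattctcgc
bcd upstream summit, 3R:6759577-6759777: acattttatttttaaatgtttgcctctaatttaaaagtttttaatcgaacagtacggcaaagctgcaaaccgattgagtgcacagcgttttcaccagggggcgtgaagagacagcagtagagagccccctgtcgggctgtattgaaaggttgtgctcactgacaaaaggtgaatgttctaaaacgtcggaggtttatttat
zen near upstream summit, 3R:6754509-6754709: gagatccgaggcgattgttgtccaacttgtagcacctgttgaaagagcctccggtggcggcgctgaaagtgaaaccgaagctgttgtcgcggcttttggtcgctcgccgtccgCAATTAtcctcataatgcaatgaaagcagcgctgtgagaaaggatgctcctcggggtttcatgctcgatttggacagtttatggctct
zen far upstream summit, 3R:6755539-6755739: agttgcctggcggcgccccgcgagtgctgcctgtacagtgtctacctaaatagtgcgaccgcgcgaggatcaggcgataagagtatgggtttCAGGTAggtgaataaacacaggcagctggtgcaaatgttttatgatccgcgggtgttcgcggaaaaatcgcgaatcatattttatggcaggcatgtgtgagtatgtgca
zen2 upstream summit, 3R:6744780-6744980: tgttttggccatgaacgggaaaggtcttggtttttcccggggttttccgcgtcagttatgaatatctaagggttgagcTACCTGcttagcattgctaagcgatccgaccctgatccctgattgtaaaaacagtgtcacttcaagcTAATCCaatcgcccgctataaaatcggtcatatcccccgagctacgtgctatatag

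The run inside *Ama* holds a CAGGTA and a TAATGA close together, left of its centre. Those of the far *zen* summit and of *zen2* hold CAGGTA next to a G, the CAGGTAG form. The run upstream of *bcd* has no capitals at all.

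Summits along the locus fell into a dense, uneven row. The whole 25.2 kb stretch, from *zen2* to *Ama*, held 3.17 IDR summits and 9.92 pooled summits per 10 kb. The rest of the Antennapedia complex held 1.86 and 6.53, and arm 3R held 0.589 and 2.31. The bithorax complex, the other Hox gene cluster of the arm, held 1.84 and 7.19 per 10 kb. The difference was not tested, since the locus is a single stretch, and the inserted copy may share some of its sequence. Of the 25 pooled summits, 8 (32.0%) were in the IDR set, where 24.7% of all pooled summits were. The deposited −log10 q-value was 4.18 at the IDR summits and fell to 0.473 at the weakest pooled summit of the locus, at 6743526. The pooled counts therefore include summits with little support as binding. The replicates had similar numbers, with 25, 27 and 26 summits in replicates 1, 2 and 3. Each of their lists holds exactly 30000 summits, so this similarity says little about the libraries. A summit missing from a list may be weaker than its last entry.

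**Figure D1:**
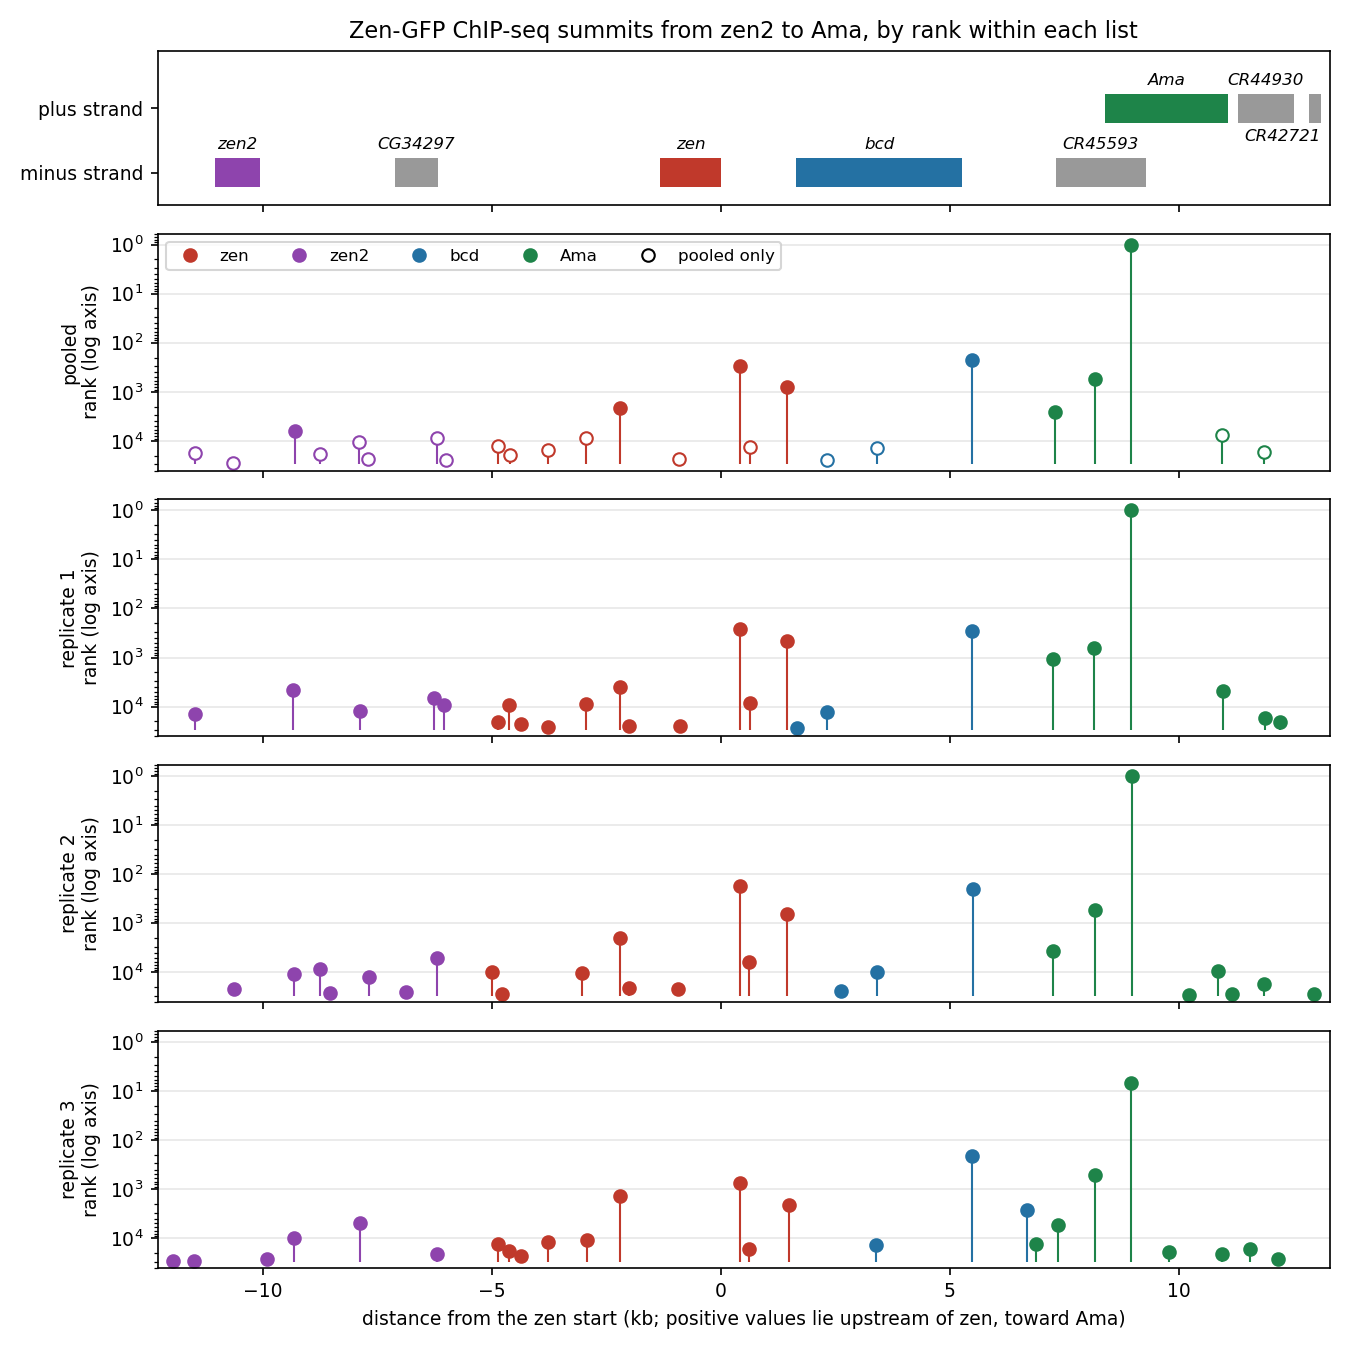
Peak summits of the pooled list and of each replicate (points with stems) against distance from the *zen* start in kb, with rank by signal on a log axis and 1 at the top; colours give the assigned gene, open points are pooled summits outside the IDR set, and the top panel shows annotated genes by strand. The highest stem is the *Ama* summit in every panel, at rank 1 in the pooled list and in replicates 1 and 2 and rank 7 in replicate 3.

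*zen* (FBgn0004053) occupies 6752864 to 6754194 on the minus strand, and all 3 of its IDR summits lay outside the transcribed part. The near upstream summit was at 6754609, 415 bp upstream of the start, in an interval of 741 bp from 6754196 to 6754936. Its signal was 651, 448 and 331 in replicates 1, 2 and 3, which placed it at ranks 256, 175 and 759, a mean of 397 ± 316 (SD, n = 3). Replicates 1 and 2 had it higher in their lists than replicate 3. The position was steadier than the rank: the library summits were at 6754613, 6754613 and 6754603, within 10 bp of each other.

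The far upstream summit of *zen*, at 6755639, lay 1445 bp upstream of the start, in the gap between *zen* and the 3' end of *bcd*. Its signal was 512, 266 and 190, at ranks 459, 632 and 2062 in replicates 1, 2 and 3, again with replicate 3 lowest. Its interval, from 6755493 to 6755809, was narrow at 317 bp. The third IDR summit of *zen*, at 6751989, lay past the 3' end of the gene, 2205 bp downstream of the start. It went the other way, with a signal of 164, 151 and 237 and ranks of 3978, 2000 and 1374, so that replicate 3 had it highest. Its library summits agreed within 9 bp, the tightest of the 8.

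The *zen* gene body itself held a single pooled summit, at 6753282 in the coding sequence. It was weak, at rank 23257 of 30000, was at ranks 24918 and 21187 in replicates 1 and 2, and had no counterpart within 100 bp in replicate 3. The other weak summits of *zen* numbered 5. One of them, at 6754824 and 630 bp upstream, shared its interval with the near upstream summit and was present in every library, at ranks 8216, 6257 and 16328. A second, at 6751238, ranked 8558 in the pooled list and 8636, 10054 and 10639 in the replicates, and lay 2956 bp downstream of the *zen* start. The remaining 3 lay nearer to the start of *CG34297* than to that of any of the 4 genes. *CG34297* is a protein-coding gene between *zen2* and *zen*.

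*zen2* (FBgn0004054, 6743135 to 6744136, minus strand) had 1 IDR summit, the weakest of the locus. It was at 6744880, 744 bp upstream of the nearest start, in an interval of 416 bp from 6744672 to 6745087, and ranked 6257 in the pooled list. Its signal was 152, 54.7 and 61.1 and its rank 4494, 10636 and 9929 in replicates 1, 2 and 3. Only replicate 1 had it among its own strongest 7405. The libraries did not share a strongest *zen2* summit: it lay 707 bp upstream in replicate 1, 3860 bp upstream in replicate 2 and 2166 bp upstream in replicate 3.

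Most of the summits that the nearest-start rule gave to *zen2* lay away from it. Of 7 weak ones, 5 were nearer to the start of another gene. The one at 6747996 fell in the 5' UTR of *CG34297*, 11 bp inside that gene's start, and ranked 6774, 5173 and 21140 in the replicates, so that replicates 1 and 2 again had it higher than replicate 3. Another, at 6742698, was nearest to *pb* (*proboscipedia*), the Hox gene of the adult mouthparts, whose start lay 635 bp away. A single pooled summit fell inside *zen2*, in its coding sequence at 6743526. It ranked 28403 and had a counterpart in replicate 2 alone.

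*bcd* (FBgn0000166, 6755842 to 6759466, minus strand) had 1 IDR summit, and it was the second strongest of the locus in the pooled list. It was at 6759677, 211 bp upstream of the start, in an interval of 418 bp from 6759431 to 6759848, with a pooled signal of 1625 and rank 229. In replicates 1, 2 and 3 the signal was 620, 422 and 589 and the rank 288, 200 and 211, a mean of 233 ± 47.9 (SD, n = 3). No library stood far from the others, and the library summits fell within 26 bp. The *bcd* body held 2 weak pooled summits. The one in the coding sequence, at 6757600, ranked 14133 and was absent from replicate 1 within 100 bp; the one in the 3' UTR, at 6756522, ranked 24183 and was found in replicate 1 alone.

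*Ama* (FBgn0000071, 6762593 to 6765261, plus strand) held the strongest summit of the pooled list. This summit was at 6763161, in an intron of *Ama* and of *lncRNA:CR45593* on the opposite strand, 243 bp upstream of the second of the 2 annotated *Ama* starts. Its signal was 3565, 2237 and 2028 in replicates 1, 2 and 3. Replicates 1 and 2 had no stronger summit anywhere, whereas it was seventh in replicate 3, which gave a mean rank of 3.00 ± 3.46 (SD, n = 3). Set against the strongest summit outside the locus in the same list, its signal was 1.12 times as high in the pooled list, 1.29 times in replicates 1 and 2, and 0.659 times in replicate 3.

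The other 2 IDR summits of *Ama* lay upstream of both starts. The one at 6762368, 225 bp upstream of the first start and in an exon of *lncRNA:CR45593*, shared a 1484 bp interval, from 6762113 to 6763596, with the strongest summit. Its signal was 443, 289 and 405 and its rank 630, 539 and 505, a mean of 558 ± 64.6 (SD, n = 3). The one at 6761497, 1096 bp upstream, had a signal of 336, 107 and 99.8 and ranks of 1083, 3702 and 5406, and its library summits spread over 95 bp, the widest of the 8. Replicate 1 had this summit well above replicates 2 and 3. Of the 2 weak *Ama* summits, the one in the *Ama* 3' UTR at 6765147 was the strongest pooled summit of the locus outside the IDR set, at rank 7582. Its library ranks were 4817, 9132 and 21200. The other, at 6766058, fell in an exon of *lncRNA:CR44930*, a noncoding RNA gene next to *Ama*.

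The 4 genes kept much of their order across the libraries. By strongest summit, *Ama* came first and *zen2* last in each of the 3 libraries. *zen* and *bcd* changed places: the signal at the near *zen* summit was 1.05 and 1.06 times that at *bcd* in replicates 1 and 2, and 0.563 times in replicate 3. Their ranks, 175 to 759 for *zen* and 200 to 288 for *bcd*, overlapped over the 3 libraries. The signal of the strongest *Ama* summit was 5.48, 4.99 and 6.12 times that of *zen* and 5.75, 5.30 and 3.44 times that of *bcd* in replicates 1, 2 and 3. *zen2* ranks of 4494 to 5173, each from a different summit, did not overlap those of any of the other 3 genes. In replicates 2 and 3 these summits lay nearer to the start of *CG34297* than to *zen2*. The *zen2* IDR summit itself ranked 4494, 10636 and 9929 in replicates 1, 2 and 3.

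**Figure D2:**
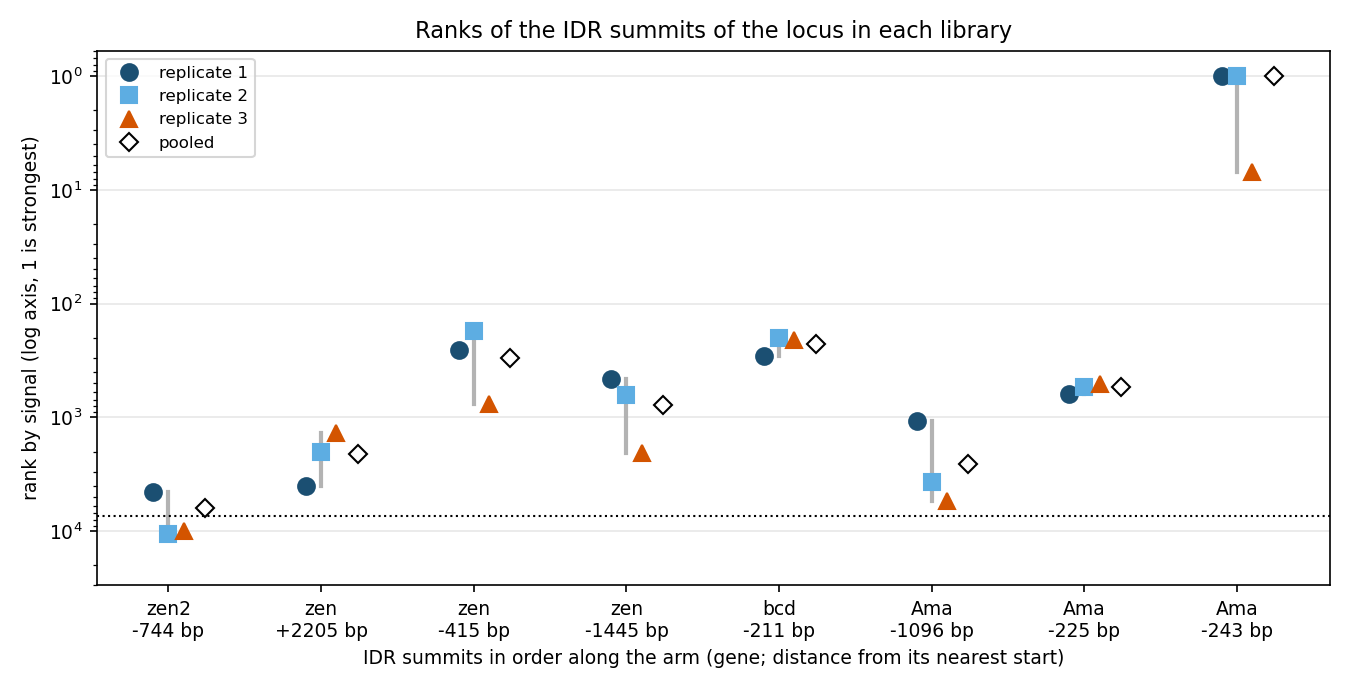
Rank by signal (log axis, 1 at the top) of each of the 8 IDR summits in each replicate (filled symbols) and in the pooled list (open diamonds), in order along the arm; grey bars span the 3 replicates, and the dotted line marks rank 7405, the size of the IDR set. The *bcd* summit and the *Ama* summit 225 bp upstream have the shortest bars among the 8, and the *zen2* summit crosses the dotted line.

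Over the 13 pooled summits of the locus with a counterpart in every library, Pearson's r of log10 rank was 0.98 for replicates 1 and 2, 0.93 for replicates 1 and 3 and 0.96 for replicates 2 and 3. The same values over 11514 pooled summits of the whole genome were 0.89, 0.82 and 0.79. Spearman's rho at the locus was 0.92, 0.85 and 0.82 for the same pairs, against 0.81, 0.76 and 0.71 over the genome. These correlations describe summits that share libraries and control, and the 13 include the strongest summit of the pooled list.

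Some library summits had no partner. In replicates 1, 2 and 3, 4, 8 and 8 of the locus summits had no pooled summit within 100 bp, and 1, 7 and 6 were in no other list. Nearly all of them were weak. The exception was in replicate 3, at 6760881 and 1415 bp upstream of *bcd*, in an interval from 6760807 to 6760896, with a signal of 159 and rank 2706. No other list had a summit within 100 bp of it.

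IDR summits of the locus were present in all libraries, and most weaker summits were not. The IDR set was exactly the strongest 7405 pooled summits by signal, and the pooled list comes from these same libraries. This contrast is therefore largely built in. All 8 IDR summits had a counterpart within 100 bp in every library, where 88.3% of all IDR summits had one. Among the 17 weaker pooled summits, 5 (29.4%) had one, where 22.0% of all weaker pooled summits did. Of the other weaker summits, 7 had a counterpart in 2 libraries and 5 in 1, and none was without any. Both shares at the locus are near the genome-wide ones and set the locus apart in neither case.

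Of the 8 IDR summits of the locus, 6 were intergenic, 1 was in an intron, 1 in a noncoding exon and 0 in coding sequence or a UTR. Of the 17 weaker summits, 10 were intergenic, 1 was in a noncoding exon and 6 in coding sequence or a UTR. Over the genome, 11.3% of all IDR and 20.1% of all weaker summits lay in coding sequence or a UTR, and with 8 and 17 summits the difference in place was not tested. Within 500 bp of an annotated start of any gene lay 4 of the 8 IDR summits and 3 of the 17 weaker ones, beside 46.8% of all IDR and 25.6% of all weaker summits. The 4 IDR summits lay next to starts of *zen*, *bcd* and *Ama*, and the 3 weaker ones next to those of *CG34297* and *lncRNA:CR44930*. Library summits lay within a median of 22.0 bp (9 to 95 bp) of each other at IDR summits and 83.0 bp (19 to 102 bp) at the 5 weaker summits found in every library. Over the genome these medians were 44.0 bp for IDR summits and 63.0 bp for weaker ones. A counterpart had to lie within 100 bp of the pooled summit, which limits these spreads. With a match within 50 bp, 7 of the 8 IDR and 1 of the 5 weaker summits kept one in every library. The difference in spread was not tested. The highest over the lowest library rank had a median of 3.62 at IDR summits of the locus and 2.61 at the 5 weaker ones. The genome-wide medians were 2.17 and 1.91. These folds cannot be compared between the sets. Each list ends at rank 30000, which limits the fold at weak summits, and single steps near the top are wide as ratios. The IDR set was the strongest part of the pooled list, so rank is what separates the sets by construction: pooled ranks ran from 1 to 6257 in the IDR summits of the locus and from 7582 to 28403 in the weaker ones. The weakest IDR summit of the series and the next pooled summit both had a signal of 240.3.

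**Figure D3:**
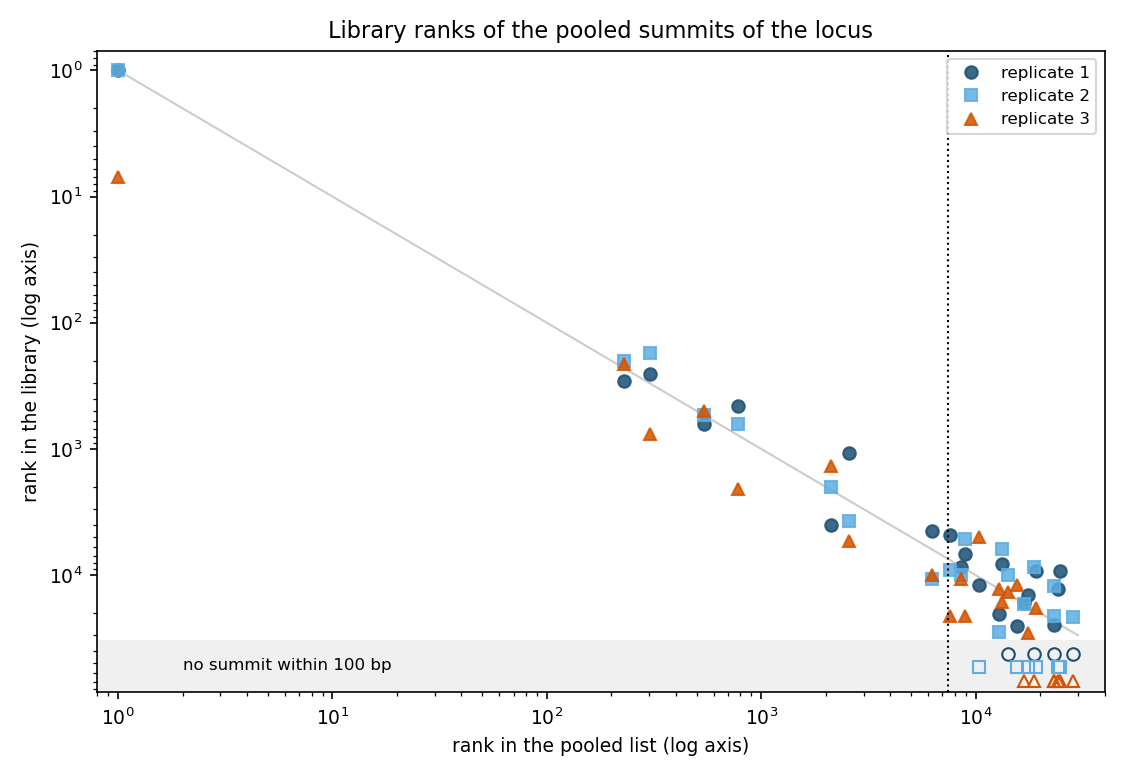
Rank in each replicate against rank in the pooled list (log axes) for the 25 pooled summits of the locus; the diagonal marks equal ranks, the dotted line rank 7405, and open symbols in the shaded band are pooled summits with no summit of that replicate within 100 bp. All open symbols lie right of the dotted line, among the 17 weaker summits, which had counterparts 13, 11 and 10 times in replicates 1, 2 and 3.

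Short DNA words were counted on both strands within 100 bp of each summit. TAATTA reads the same on both strands, and the other words counted do not, which gives them more chances of a match. Shares can therefore be set side by side between sets of summits but not between this word and the others. TAATTA was at none of the 8 IDR summits of the locus and at 3 of the 17 weaker ones, where 18.6% of all IDR and 15.2% of all weaker summits held it. TAATTG was at 3 IDR summits (37.5%) and 1 weaker summit (5.88%), beside 21.7% and 20.5% over the genome. TAATGA was at 4 of the 8 IDR summits and 2 weaker summits (11.8%), beside 17.2% and 15.3%. At least 1 of these 3 words was at 5 of 8 IDR summits (62.5%) and 4 of 17 weaker ones (23.5%), beside 46.9% and 41.7%. Within 50 bp of the summit 4 of 8 IDR and 2 of 17 weaker summits held one. With 8 and 17 summits these shares are descriptions, and a word is not by itself a bound site.

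The words sat at different places in the 8 windows. At the near *zen* summit a TAATTG was centred 15.5 bp away, and at the *zen* summit past the 3' end one was centred 12.5 bp away and a TAATGA 61.5 bp away. The strongest *Ama* summit had its TAATGA 37.5 bp away, and the *Ama* summit 225 bp upstream had one 23.5 bp away. The *Ama* summit 1096 bp upstream had a TAATGA 61.5 bp and a TAATTG 67.5 bp away. The far *zen* summit, the *bcd* summit and the *zen2* summit held none of the 3 words.

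CAGGTA was at 3 of the 8 IDR summits (37.5%) and 1 of the 17 weaker ones (5.88%), beside 10.2% of all IDR and 6.47% of all weaker summits. It was centred 5.5 bp from the far *zen* summit, 19.5 bp from the *zen2* summit and 48.5 bp from the strongest *Ama* summit. CAGGTAG, which contains CAGGTA, was at the first pair of these, 25.0% of the 8, and at 0 of the 17, beside 4.25% and 1.92%. The Bicoid word TAATCC was at the *zen2* summit alone, 47.5 bp away; over the genome 7.14% of IDR and 6.76% of weaker summits held it. GAGAG, bound by GAGA factor, was at 3 IDR summits (37.5%) and 4 weaker ones (23.5%), beside 23.8% and 23.9%. One of the 3 was at *bcd*, centred 21.0 bp away. TAAATT, the bases of TAATTA in another order, was at 2 IDR summits (25.0%) and 2 weaker ones (11.8%), beside 33.3% and 25.8%. This reordered word reads differently on each strand, whereas the homeodomain word reads the same on both. The reordered word therefore has more chances of a match in each window, and the shares of these words cannot be set against each other. The windows differed in base composition, with a median GC content of 48.0% at the 8 IDR summits and 45.3% at the 17 weaker ones, against 38.3% and 42.8% over all IDR and all weaker summits. The part of base composition in these shares was not tested.

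**Figure D4:**
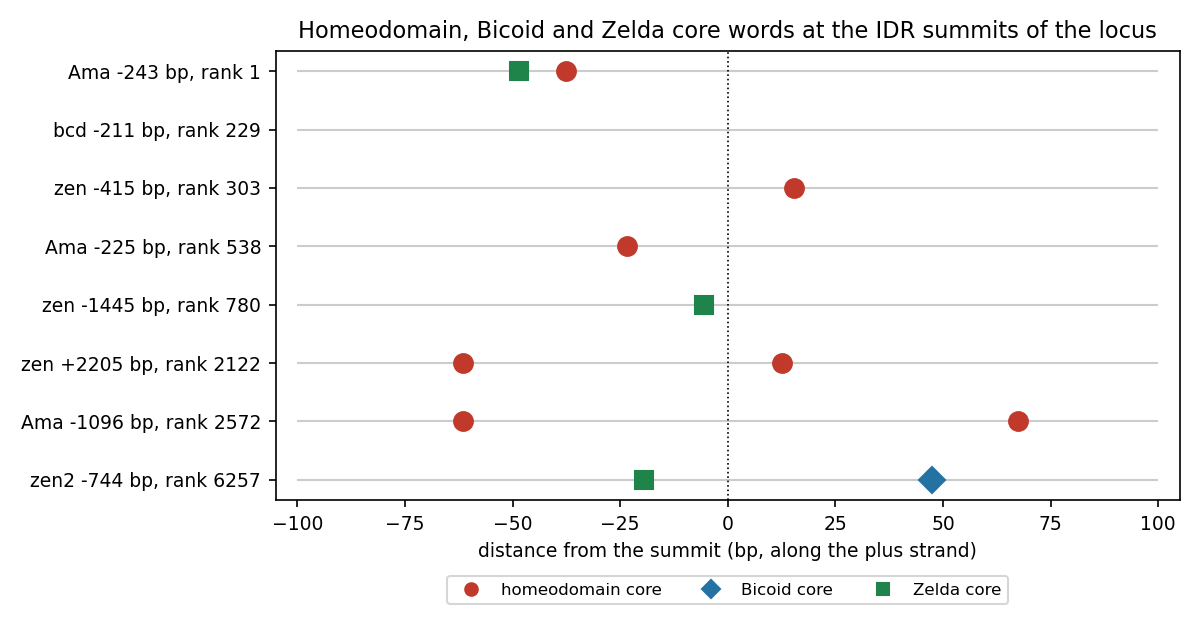
Positions of homeodomain words around TAAT, the Bicoid word TAATCC and the Zelda word CAGGTA within 100 bp of each IDR summit of the locus, in bp along the plus strand from the summit, with the strongest pooled rank at the top. 5 rows carry a homeodomain word, 3 carry CAGGTA, and the *bcd* row is empty.

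The genes around the locus and the known regulators of *zen* were looked up in the same IDR set, as genes with a summit in the gene body or the 2000 bp on either side. All 4 genes of the locus had one, where 46.8% of 13945 protein-coding genes did. All 6 genes examined in the rest of the Antennapedia complex also had one: *ftz*, a pair-rule gene, at rank 53, *Scr* at 89, *Antp* at 188, *pb* at 420, *lab* at 1590 and *Dfd* at 3159. The *Dfd* summit had no counterpart in replicate 3. *Antp*, whose body is the longest of these at 103 kb, held 21 summits, and gene lengths differ too widely for the counts to be compared.

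Of 15 genes that act upstream of *zen*, 12 (80.0%) had an IDR summit, beside the 46.8% of all protein-coding genes. The share is not adjusted for length, whose part was not tested. Among genes with a summit, *shn*, *tkv* and *cic* are 58.3, 52.4 and 51.2 kb long. The genes *brk*, *tld* and *Med*, which also had one, are 3.19, 3.78 and 4.33 kb long. Those without a summit, *scw*, *sax* and *dl*, are 1.59, 3.58 and 13.5 kb long. The genes with a summit included the BMP ligand gene *dpp* (rank 939), its antagonist *sog* (2015) and the protease gene *tld* (678). The BMP receptor gene *tkv* (726) and the genes of the signal transducers *Mad* (998) and *Med* (182) were among them, as were *shn* (138), a Mad cofactor, and *brk* (755), a repressor of BMP targets. The corepressor gene *gro* (600) and the genes of the repressor partners of Dorsal, *cic* (1348) and *retn* (1409), had summits, and so did *vfl* (299), which encodes Zelda. The 3 genes without one were *dl*, which encodes Dorsal, the BMP ligand gene *scw* and the BMP receptor gene *sax*.

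Among 6534 IDR summits outside the locus with a counterpart in every library, those with library ranks most like the near *zen* summit were in *CG12541* on X (ranks 267, 186 and 728), beside *zfh2* on 4 (226, 170 and 720) and in *KP78a* on 3R (229, 156 and 707). Their Euclidean distances from it on the log10 scale over the 3 libraries were 0.0369, 0.0601 and 0.0761. The closest matches to the strongest *Ama* summit were in *bbg* (ranks 2, 2 and 78; distance 1.13), in *px* (ranks 4, 4 and 1; distance 1.20) and beside *Art3* (ranks 6, 7 and 2; distance 1.27). These distances cannot be set against those of *zen*, since single steps of rank at the top of a list are wide on a log10 scale.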

How the data were processed

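ChIP-seq peak lists of 3 zen-eGFP libraries, of the pooled libraries and of the IDR set were used. Peaks were called by the authors on dm6 against 1 control file, per the file notes. These notes give the pooled list and the IDR set as derived from the alignments of all 3 libraries. The sources used here do not name the aligner or the peak caller. The deposited signal value in column 7 is a value per peak from the authors' caller, set against the control, and was used for ranks and ratios within a list. The deposited −log10 q-value in column 9 has a ceiling, at which 7510 pooled peaks lie, and ranked peaks only in an alternative.

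There were 30000 summits per library and 30000 pooled, of which the strongest 7405 by signal made up the IDR set. Without read counts, depth is unknown and no counting interval is possible. No peak was identical between libraries. The labels name separate biological replicates; ± SD covers only the spread between these 3.

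A summit is column 2 plus column 10, printed 1-based. Genes came from Ensembl release 115 and sequence from RefSeq Release 6, which share dm6 coordinates. A counterpart was the nearest library summit within 100 bp. Protein identities came from translating the annotated coding sequences. Python 3.11.15, pandas 2.3.3 and numpy 2.4.6 were used, and matching and word counting were tested on simulated data. No statistical test was made, since there is a single group.

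The members, gene lists and words were chosen with earlier results of these data known. The genes named are the 4 members, other genes that hold or lie nearest to a summit of the window, both gene lists and the 3 summits most like *zen* and *Ama* in library rank. Alternatives were the size of the IDR set, counting intervals once, match distances of 50 and 200 bp, interval overlap, the strongest 7405 peaks per library, ranking by q-value, other gene territories, word windows of 50 bp and leaving out each library.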

Additional observations from a re-analysis of the deposited data

How the results depend on the processing

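The 8 IDR summits of the locus became 7 among the strongest 3702 pooled peaks or when intervals were counted once, and 15 among the strongest 14810. Leaving out a library cannot lower the 8 found in every library. Of these, 7 remained with a match within 50 bp or among the strongest 7405 peaks of each library, where the *zen2* summit was lost. The 5 weaker summits found in every library were less settled: there were 1 with 50 bp, 8 with 200 bp, 10 with interval overlap and 0 among the strongest 7405 peaks of each library. With 1 library left out, which can only raise the count, 6 to 9 were in both of the others, the most without replicate 2. Ranking by q-value put the strongest summits of *zen*, *zen2*, *bcd* and *Ama* at 3755.5 alike, since all lie at its ceiling. The *zen2* rank of 6257 was 5001 as the median over libraries, each with its own strongest summit, and 4747.5, 4833.5 and 5087 without replicates 2, 3 and 1. The same ranges were 215.5 to 507.5 for *zen*, 205.5 to 249.5 for *bcd* and 1 to 4 for *Ama*. Within 50 bp in place of 100 bp, TAATGA was at 2 IDR and 1 weaker summit (4 and 2 within 100 bp), TAATTG at 2 and 0 (3 and 1), TAATTA at 0 and 1 (0 and 3), any of these at 4 and 2 (5 and 4), and CAGGTA at 2 and 0 (3 and 1). No paired analysis was possible because there is a single group. Small numbers and unknown depth limit these results, and no untagged library was analysed here.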
